A study of Mus musculus with 6 samples.

Results

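The 9 genes described here are the ligands Tgfb1, Tgfb2, Tgfb3 and Inhba, the receptors Tgfbr1, Tgfbr2 and Tgfbr3, the activin-binding protein Fst and the matrix protein Tgfbi. They were chosen by name as the core of the transforming growth factor beta (TGF-beta) and activin pathway, with earlier results of these data known. All 9 were among the 24568 gene symbols of a single-cell matrix of fetal mouse intestine. TGF-beta ligands are secreted in a latent form, and once released they bind TGFBR2, which recruits and activates TGFBR1 so that SMAD proteins are phosphorylated and move to the nucleus. TGFBR3, also called betaglycan, is a co-receptor that presents ligand, TGF-beta2 in particular. The Inhba product forms activin A, which signals through its own receptors to the same SMAD proteins and is bound and held inactive by follistatin, the product of Fst. In the gut wall the mesenchyme both makes and answers these signals, which are known for matrix production and for the differentiation of smooth muscle.

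Small intestine of C57/BL6 embryos carrying the Pdgfra-H2BGFP allele, in which nuclear green fluorescent protein follows the gene Pdgfra, a receptor for platelet-derived growth factor on mesenchymal cells, was dissociated and tagged with lipid-bound barcodes (MULTI-seq). Every group carried this allele, and replicates were pooled, with 4 for E13.5 embryos, 3 for E14.5 and 2 for each of the ages E15.5, E16.5 and E18.5. The labels give 6 samples. E15.5 was run with E16.5 in 2 lanes of all live cells (negative for DAPI and Ter119) and 1 of enriched cells, and the E13.5, E14.5 and E18.5 embryos were run together in the same layout. Enriched cells were positive for CD31, CD45 or Epcam, or had a high PDGFRa-GFP signal.

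The cells were deposited in 1 pooled matrix whose cell barcodes carry 6 suffixes, and no label says which suffix is which sample. The suffixes were therefore used only as technical sets, called A1, A2 and A3 for the barcodes with the first ending and B1, B2 and B3 for those with the second, and nothing is said of age or sort. With no map from cells to samples the matrix counts as 1 sample, so no test was made and no p-value is given. Intervals are given at 95% and take in the error of counting alone. Levels are unique molecular identifiers (UMIs, each 1 captured transcript end) as counts per 1000000 UMIs of the set, written CPM. Gene lists differ between A and B, so levels were compared within A or within B.

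Of 13127 cells, 12688 had at least 1000 genes and at most 5% mitochondrial UMIs and were kept. Set sizes ran from 1185 cells in A3 to 2518 in B2, and median UMIs per cell from 3553 in B3 to 13588 in A2, with 7073 in A3. In all, 22 barcode sequences occurred in more than 1 set. The 6 mesenchyme markers Col1a1, Col1a2, Col3a1, Dcn, Lum and Vim summed to 3738 to 7264 CPM over the sets, and the 5 epithelial markers to 23.4 to 244 CPM. A3 and B3 stood apart from the other sets. The Pdgfra and Acta2 comparisons and the likeness to Pdgfra over clusters were also taken without them, while the other values over clusters were not. In A3 the 5 enterocyte markers summed to 2325 CPM against 491 in A1 and 472 in A2, the 5 immune markers to 79.9 against 8.0 and 11.0, the 6 endothelial markers to 58.5 against 7.2 and 6.8, and the epithelial markers to 244 against 35.8 and 33.5. In B3 the 3 erythroid markers summed to 2517 CPM against 1263 in B1 and 1252 in B2, the immune markers to 65.6 against 30.8 and 27.9, the endothelial markers to 49.3 against 17.6 and 15.7, the epithelial markers to 70.1 against 23.4 and 27.3, and the enterocyte markers to 55.6 against 35.0 and 32.0. Of all these markers, Alas2 in A3 alone was at 0 in a set. The 7 smooth muscle markers went the other way, at 573 CPM in A3 against 1558 and 1613, and at 242 in B3 against 1145 and 1130.

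Most of the 9 genes stood higher in A3 and B3 than in the other sets: 7 in both, Tgfbr1 in B3 alone, and Tgfb2 in neither. A gene was counted as higher or lower where set 3 lay beyond 1.5-fold in 1 direction against set 1 and also against set 2. By this count 7 of the 9 genes were higher and 0 lower in A3, while 19% of 11241 genes with at least 5 CPM in any of the 3 sets were higher and 14.4% lower. In B3, 8 of the 9 were higher and 0 lower, beside 20% higher and 11.1% lower of 10415 genes. The median log2 ratio over the 9 genes was 1.52 in A and 1.52 in B, beside -0.01 and 0.14 over all genes with a ratio. A2 and A1 differed past the same fold in 1.52% of genes and B2 and B1 in 1.23%, and in none of these were the 9 genes included.

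Tgfb1, the TGF-beta isoform best known from immune regulation, had 10.4 CPM in A1, 10.5 in A2 and 62.6 in A3. In B it had 16.1 CPM in B1, 17.3 in B2 and 59.1 in B3. Sets 1 and 2 thus lay close together and set 3 far above, by a log2 ratio of 2.59 in A and 1.82 in B (set 3 over sets 1 and 2 summed). At 2000 UMIs per cell, drawn so that all cells have equal depth, Tgfb1 UMIs were found in 2.39% of A1 cells, 1.68% of A2 cells and 12.4% of A3 cells. Without thinning these shares were 11.2%, 12.1% and 36.3%. No cell type known to lack these genes was at hand to gauge free RNA, so shares are not read as shares of expressing cells.

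Tgfb3, an isoform known from palate and lung development, showed nearly the same pattern. Its level was 12.5 CPM in A1, 12.6 in A2 and 50.9 in A3, and 17.4, 16.7 and 54.6 CPM in B1, B2 and B3. The log2 ratios were 2.02 in A and 1.68 in B.

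Inhba, which encodes the activin A subunit, had the largest ratio of the 9 genes in A. It stood at 7.91 CPM in A1, 7.26 in A2 and 79.1 in A3, and at 13.1, 15.4 and 43.2 CPM in B1, B2 and B3. This was a 10.4-fold difference in A (log2 3.38) and a 3.02-fold difference in B (log2 1.59). Inhba was uneven across cells: the thinned UMIs of Inhba in A3 had a variance 1.59 times their mean, against 0.97 for Tgfb1, where 1 is what random capture from equal cells gives.

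Tgfb2, the isoform that depends most on betaglycan for binding, did not follow its relatives. It had 9.20 CPM in A1, 10.0 in A2 and 6.82 in A3, and 12.8, 10.1 and 10.6 CPM in B1, B2 and B3. The log2 ratios were -0.49 in A and -0.10 in B, and neither reached the fold. With the mean of per-cell CPM and with thinned UMIs Tgfb2 was lower past the fold in A3, and among cells with no immune or endothelial UMI its ratio there was -0.0071. In B it passed the fold under no setting.

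**Figure D1:**
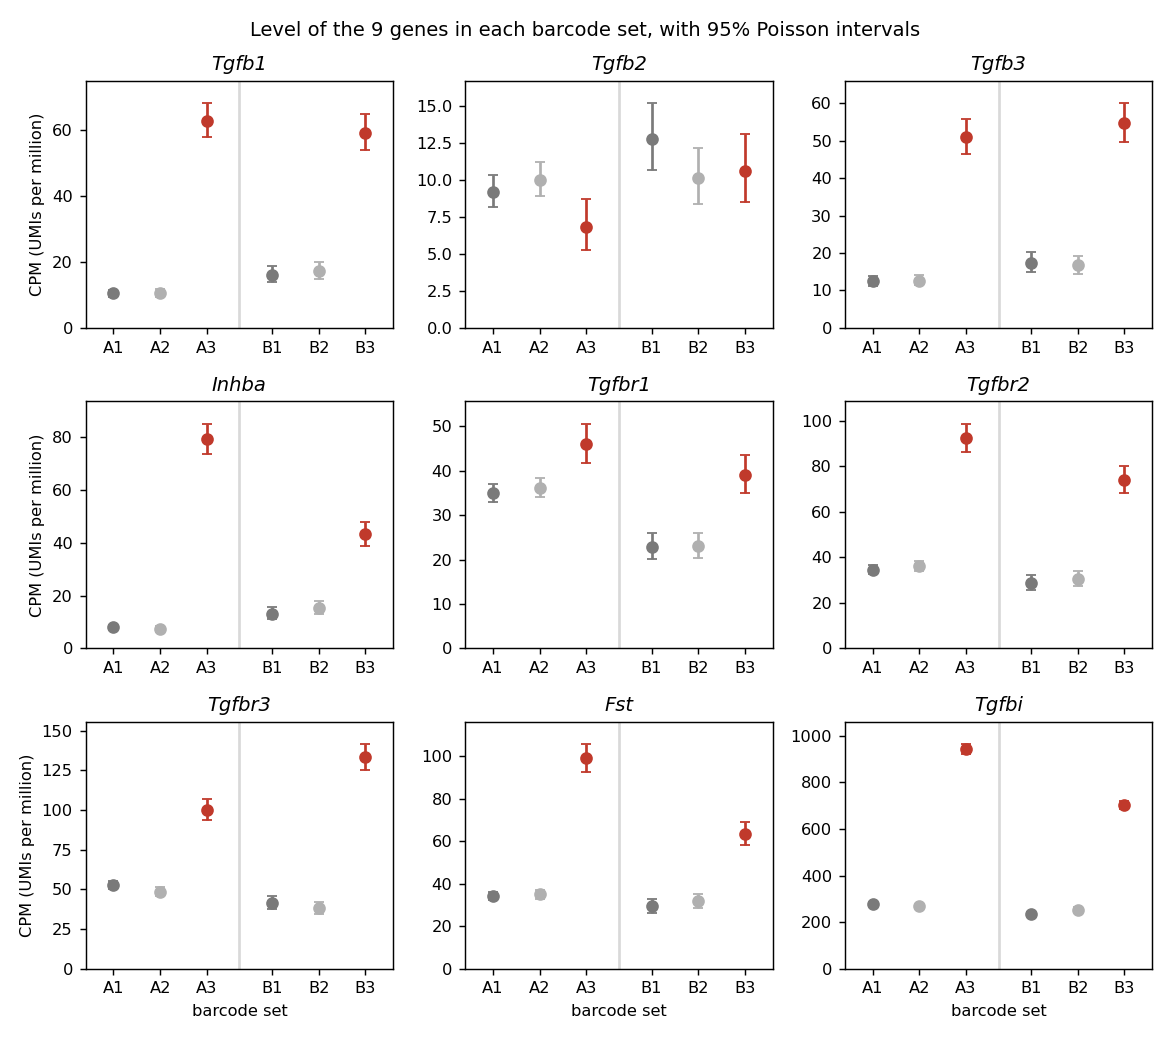
Level of each gene (CPM, linear axis from 0) in the 6 barcode sets; points are levels and bars 95% Poisson intervals, with the third sets in red. Tgfb1, Tgfb3 and Inhba stand at 43 to 79 CPM in the third sets and at 7 to 17 in the others, while Tgfb2 stays between 6.82 and 12.8.

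Among the receptors, the ligand-binding Tgfbr2 and the co-receptor Tgfbr3 were higher in both A3 and B3. Tgfbr2 had 34.6 CPM in A1, 36.0 in A2 and 92.4 in A3, and 28.7, 30.4 and 74.1 CPM in B1, B2 and B3, which gave log2 ratios of 1.39 and 1.32. Tgfbr3 had 52.5, 48.6 and 100.3 CPM in A1, A2 and A3, and 41.4, 38.1 and 133 CPM in B1, B2 and B3, with log2 ratios of 0.99 and 1.75. In A3 Tgfbr3 no longer passed at a fold of 2.

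Tgfbr1, the signalling kinase of the receptor pair, differed least among the receptors. It had 35.0 CPM in A1, 36.2 in A2 and 46.0 in A3, a log2 ratio of 0.37 that stayed under the fold, and 22.9, 23.0 and 39.2 CPM in B1, B2 and B3, a log2 ratio of 0.77. With thinned UMIs the ratio in B fell to the other side of 1.5-fold against at least 1 set. Receptor partners thus differed unequally in A, where Tgfbr2 was 2.62-fold and Tgfbr1 1.29-fold the level of sets 1 and 2.

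Fst and Tgfbi were also higher in both A3 and B3. Fst had 34.3 CPM in A1, 35.0 in A2 and 99.1 in A3, and 29.5, 31.7 and 63.6 CPM in B1, B2 and B3, with log2 ratios of 1.52 and 1.05. Tgfbi, a secreted adhesion protein of the matrix that TGF-beta induces in many cells, had 280 CPM in A1, 268 in A2 and 943 in A3, and 234, 254 and 703 CPM in B1, B2 and B3. Its log2 ratios were 1.78 and 1.52. Fst UMIs were unevenly spread over cells, with a variance of thinned counts of 1.30 to 1.68 times the mean over the 6 sets. That of Tgfbi was 1.36 to 1.76 times and that of Tgfbr1 1.00 to 1.06 times. This measure rises with the mean count, and in A3 Tgfbi had 2601 thinned UMIs and Tgfbr1 101. The ranges of Tgfbi and Tgfbr1 therefore do not show which was spread more unevenly.

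**Figure D2:**
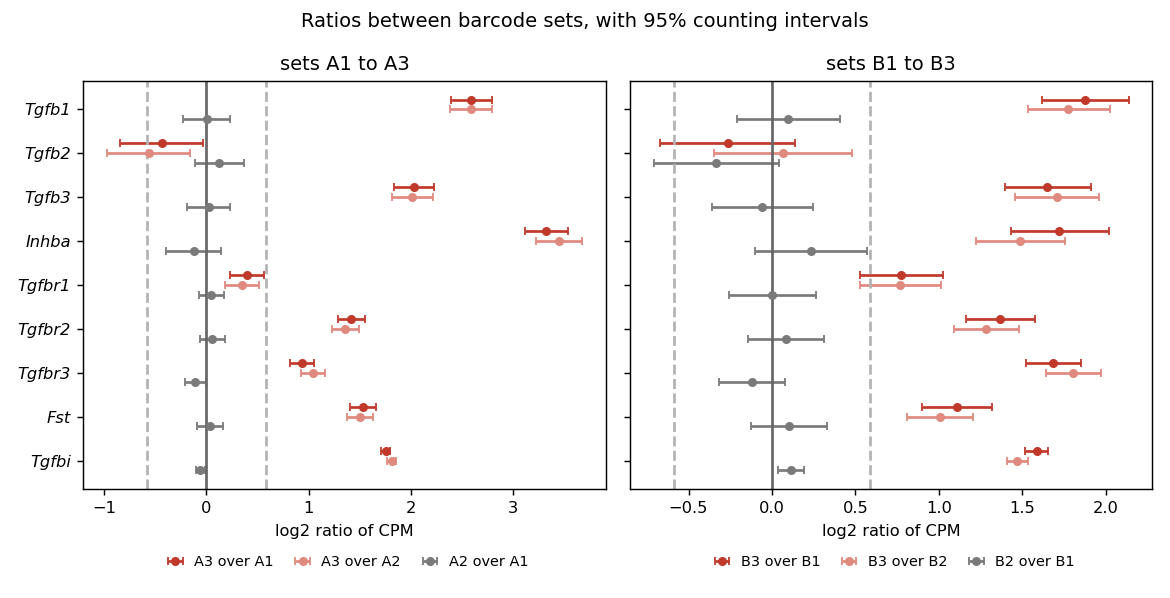
Log2 ratio of CPM between barcode sets for each gene, with 95% counting intervals; dashed lines mark 1.5-fold. Ratios of set 2 over set 1 (grey) lie near 0, while set 3 over sets 1 and 2 (red) lies past the upper line for 7 genes in A and 8 in B.

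Pdgfra itself was higher in the same sets, at 943 CPM in A3 against 173 and 129, and at 409 in B3 against 106 and 113, and the smooth muscle gene Acta2 was lower, at 317 CPM in A3 against 915 and 937 and 138 in B3 against 488 and 476. Among cells with no thinned Pdgfra UMI most of these genes again stood higher in the third sets. In such cells of A, Tgfb1 had 63.6 CPM in A3 and 9.98 in A1 and A2 together, Inhba 51.5 and 8.25 CPM, and Tgfbi 820 and 307 CPM. In those of B, Tgfb1 had 65.8 CPM in B3 and 17.0 in B1 and B2 together, Inhba 41.1 and 11.9 CPM, and Tgfbi 657 and 241 CPM. Tgfbr1 in these cells of A had a log2 ratio of 0.08 (interval -0.62 to 0.71).

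Among cells with 2 or more thinned Pdgfra UMIs the differences in B were smaller. The log2 ratio of B3 over B1 and B2 there was 0.61 (interval -0.24 to 1.55) for Tgfb1, 0.49 (-0.34 to 1.40) for Inhba, 0.59 (-0.11 to 1.34) for Tgfbr2 and -0.38 (-1.10 to 0.36) for Fst, intervals that take in 0. Tgfb3 (1.16), Tgfbr3 (0.85) and Tgfbi (0.49, interval 0.27 to 0.71) lay above 0. In A the ratios of such cells were 2.14 for Tgfb1, 2.56 for Inhba and 1.08 for Tgfbi. A thinned count of 0 does not show that a cell lacks Pdgfra. Among cells with no UMI of the immune and endothelial markers (467 of 1185 in A3 and 1477 of 2202 in B3), 7 genes in A and 8 in B were past the fold. This filter kept 2080 of 2470 cells in A1, and the share of all genes past the fold among the cells it kept is not given here. The part of the epithelial, enterocyte, erythroid and smooth muscle transcripts in these differences was not tested.

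The 4 promoter windows below show the genes that were higher together in both A3 and B3 and have a window before any annotated start (Tgfb1, Tgfbr2 and Tgfbi), with Tgfbr1, which differed least among the receptors, for comparison. They are RefSeq sequences of GRCm38.p6, 5′ to 3′ on the gene's strand, up to 250 bases long and ending at the base before the annotated start. Capitals mark matches, on either strand, to the SMAD box CAGAC or the GC box GGGCGG, and no 2 matches overlap.
Tgfb1 (chr7:25686752-25687001, plus strand): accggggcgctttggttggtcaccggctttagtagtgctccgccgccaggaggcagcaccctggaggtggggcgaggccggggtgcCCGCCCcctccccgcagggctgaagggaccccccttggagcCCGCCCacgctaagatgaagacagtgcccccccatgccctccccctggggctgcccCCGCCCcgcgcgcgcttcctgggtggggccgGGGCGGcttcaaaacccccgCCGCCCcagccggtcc
Tgfbr2 (chr9:116175364-116175613, minus strand): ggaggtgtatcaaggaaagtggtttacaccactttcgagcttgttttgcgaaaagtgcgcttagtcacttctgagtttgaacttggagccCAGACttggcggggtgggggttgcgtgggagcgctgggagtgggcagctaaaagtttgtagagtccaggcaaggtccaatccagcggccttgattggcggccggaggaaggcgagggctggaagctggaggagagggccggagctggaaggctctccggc
Tgfbi (chr13:56609336-56609522, plus strand): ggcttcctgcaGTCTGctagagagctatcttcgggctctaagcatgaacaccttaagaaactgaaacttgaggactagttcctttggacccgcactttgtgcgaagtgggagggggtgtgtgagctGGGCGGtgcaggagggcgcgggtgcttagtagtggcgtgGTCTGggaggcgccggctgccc
Tgfbr1 (chr4:47352972-47353221, plus strand): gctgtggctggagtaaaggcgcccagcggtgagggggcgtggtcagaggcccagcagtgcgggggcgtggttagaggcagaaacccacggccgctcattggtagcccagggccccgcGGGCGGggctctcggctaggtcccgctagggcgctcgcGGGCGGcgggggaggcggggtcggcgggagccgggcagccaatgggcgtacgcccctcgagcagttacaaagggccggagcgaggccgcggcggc

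Tgfb1 had 5 GC boxes and no SMAD box in this window, Tgfbr1 had 2 GC boxes, Tgfbr2 had 1 SMAD box, and Tgfbi had 2 SMAD boxes and 1 GC box. Of 32851 RefSeq windows of 250 bases, 42.2% held the SMAD box and 32.7% the GC box, so both are common. The AP-1 site TGANTCA (6.75% of windows), TATAAA (12.4%), the cyclic AMP element TGACGTCA (1.55%) and the forkhead site TGTTTAC (3.17%) were also searched and had no match in these 4 windows. The windows of Tgfb1 and Tgfbr1 were rich in G and C (75.2% and 74.8%), against a median of 52.4% over all windows. No one of these motifs was found in all 3 of the windows shown for Tgfb1, Tgfbr2 and Tgfbi. A match is a description and not a binding site, and the absence of one says only that the letters are not in this window.

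The genes lie at separate places in GRCm38, the assembly that the build name mm10 stands for, by the GENCODE annotation. The ligand genes are Tgfb1 at chr7:25687002-25705077, Tgfb2 at chr1:186622792-186705989, Tgfb3 at chr12:86056745-86079041 and Inhba at chr13:16011851-16031621. The receptor genes are Tgfbr1 at chr4:47353222-47414931, Tgfbr2 at chr9:116084293-116175360 and Tgfbr3 at chr5:107106570-107289629. Fst lies at chr13:114452290-114458951 and Tgfbi at chr13:56609523-56639562. Antisense annotations overlap Tgfb2, Tgfb3 (among them Ttll5), Inhba, Tgfbr3 and Fst. UMIs of these 5 genes could thus include some of a neighbour where strand was not used in counting. Whether strand was used is not given in the sources used here. Same-strand gene models overlap Tgfbr3, and strand would not separate their UMIs from those of Tgfbr3.

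Within single sets, the relation of the 9 genes to Pdgfra was read at equal depth. Each cell was thinned to 2000 UMIs, which kept 12647 cells, and cells with 2 or more Pdgfra UMIs were set against cells with 0. A gene was called where the median log2 ratio over the 6 sets was past 1.5-fold and all sets had 1 sign. Inhba, Tgfbr2 and Tgfbi were called higher with Pdgfra and no gene lower, beside 2.86% higher and 3.09% lower of 11003 genes. The median over the 9 genes was 0.66 on the log2 scale, beside -0.0046 over all genes with a ratio.

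Inhba in Pdgfra-free cells had 7.73, 8.82 and 51.5 CPM in A1, A2 and A3, and in Pdgfra-rich cells 28.0, 11.8 and 126 CPM. In B1, B2 and B3 it had 11.1, 12.7 and 41.1 CPM in Pdgfra-free cells and 44.4, 35.1 and 55.1 CPM in Pdgfra-rich cells. Pdgfra-rich cells were higher in 6 of 6 sets, with a median log2 ratio of 1.38 and a range from 0.42 to 2.00. Outside A3 and B3 the Pdgfra-rich classes were small, with 85 to 125 cells and 2 to 8 Inhba UMIs each.

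Tgfbi gave the best-counted relation. In Pdgfra-free cells it had 305, 309, 820, 226, 255 and 657 CPM in A1, A2, A3, B1, B2 and B3, and in Pdgfra-rich cells 640, 571, 1290, 617, 544 and 808 CPM. All 6 sets were higher, with a median of 0.98 and the smallest difference, 0.30, in B3. Tgfbr2 had 37.0, 31.9, 89.3, 27.4, 27.9 and 76.9 CPM in Pdgfra-free cells and 64.0, 70.6, 123, 50, 57.0 and 81.0 CPM in Pdgfra-rich cells, with a median of 0.83 and only 0.08 in B3.

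The other genes did not meet the call. Tgfb3 was higher in 6 of 6 sets with a median of 0.58, just under the log2 of 1.5. Fst (median 0.87) and Tgfb1 (median 0.66) were higher in 5 of 6 sets each, and B3 was the exception for both, at -0.14 and -0.23. Tgfbr1 (0.19) and Tgfbr3 (0.01) were higher in 3 of 6 sets, although Tgfbr3 stood at 130 CPM in Pdgfra-free and 137 in Pdgfra-rich cells of B3 and at 41.0 and 100.0 in those of B1. Tgfb2 was lower in 5 of 6 sets with a median of -0.42, from 1 to 5 UMIs in the Pdgfra-rich class of each set.

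**Figure D3:**
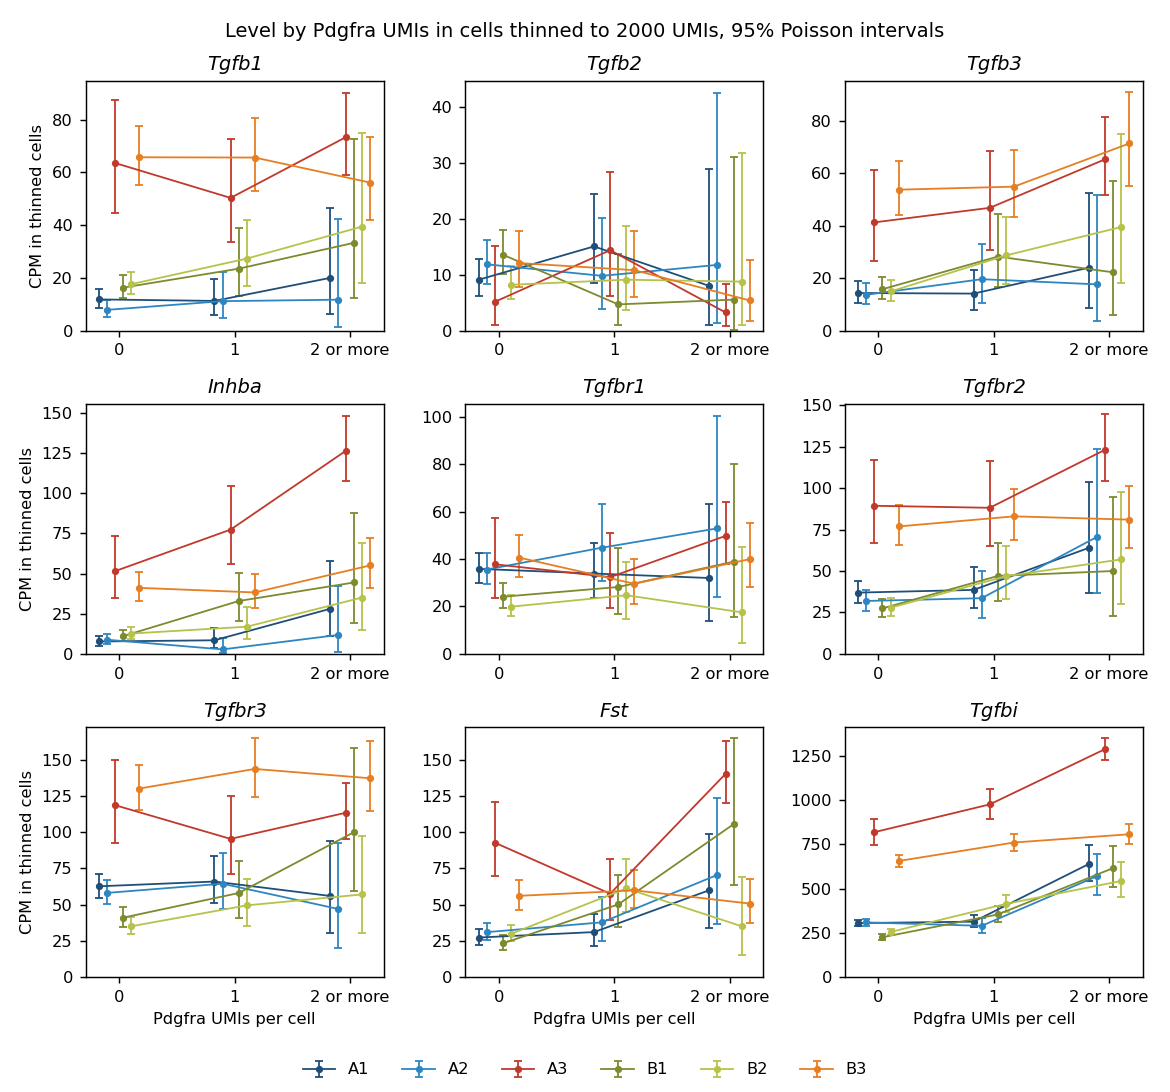
CPM of each gene (linear axis from 0) in cells with 0, 1 or 2 or more Pdgfra UMIs after thinning to 2000 UMIs, 1 line per barcode set, with 95% Poisson intervals. Tgfbi is higher in cells with 2 or more in all 6 sets, and A3 and B3 lie above the other sets already at 0 Pdgfra UMIs for Tgfb1, Tgfb3 and Inhba.

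The count depended on B3 and on the class. Without B3, 6 genes were called (Tgfb1, Tgfb3, Inhba, Tgfbr2, Fst and Tgfbi), and with 1 or more Pdgfra UMIs in place of 2 or more, 0 were. Tgfbr2 was not called with another draw of the thinned UMIs. Over 14 settings, Tgfbi was called in 12, Inhba in 11, Tgfbr2 in 8 and Tgfb3 in 7. In Acta2-free cells, where 5 sets had enough cells, Tgfb3, Inhba, Tgfbr2 and Tgfbi were called. In cells with 1 or more Acta2 UMIs, Tgfb1 (median 1.29), Inhba (1.33) and Tgfbi (1.01) were called, each higher in 6 of 6 sets, while Tgfbr2 (0.42) and Tgfb3 (0.98) were higher in 5 of 6 and were not called.

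Against Acta2, the actin of smooth muscle and contractile mesenchyme, none of the 9 genes was called. Cells with 5 or more thinned Acta2 UMIs were set against cells with 0 in the 5 sets with at least 30 cells in both classes, which leaves out B3 with 15 Acta2-rich cells. Of 10868 genes, 1.04% were called higher and 3.4% lower. Tgfbi, with the most UMIs, had 390, 349, 1127, 272 and 301 CPM in Acta2-free cells of A1, A2, A3, B1 and B2, and 296, 284, 947, 268 and 250 CPM in Acta2-rich cells. It was lower in 5 of 5 sets, by a small median log2 ratio of -0.27. The other genes rested on few UMIs in the Acta2-rich classes (Tgfb1 on 1 to 8 in each set, Inhba on 0 to 4), so differences of 1.5-fold could be missed at this depth. Fst had log2 ratios of 1.01 (interval 0.22 to 1.78) in A1 and 1.77 (0.86 to 2.68) in A2. In A3, B1 and B2 its ratios were 0.12 (-0.96 to 1.03), -0.40 (-3.48 to 1.51) and -0.34 (-3.41 to 1.56), intervals that take in 0.

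**Figure D4:**
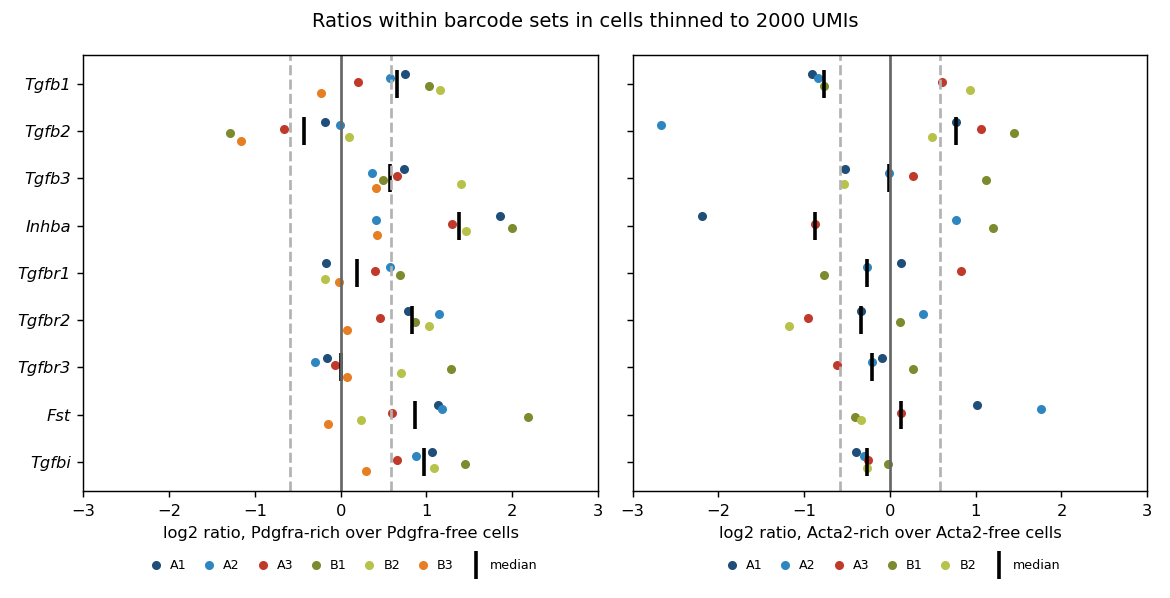
Log2 ratio of each gene within each barcode set (points), at left for cells with 2 or more against 0 Pdgfra UMIs and at right for cells with 5 or more against 0 Acta2 UMIs; bars mark the median over sets and dashed lines 1.5-fold, and sets with 0 UMIs in the Acta2-rich class have no point. Inhba, Tgfbr2, Tgfb3 and Tgfbi lie above 0 in all 6 sets at left, while at right only Tgfbi keeps 1 sign, at -0.40 to -0.02.

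Over groups of like cells the ligands separated further. Cells of A and of B were clustered apart without the 9 genes and without 57 further pathway genes, which gave 15 clusters of 50 or more cells in A and 12 in B. The clusters are numbered and described by their leading genes, and levels over them are a description of the same cells. In A the highest level of Inhba, Fst and Tgfbi was in cluster A-c0 (746 cells, 699 of them from A3, led by Slco2a1, Npnt and AW112010). Those of Tgfb1, Tgfb3 and all 3 receptors were in A-c12 (180 cells, 155 from A3, led by Opcml, Kcnk13 and F2rl1). For Tgfb1, Fst, Tgfbr1 and Tgfbr2 the intervals of these 2 clusters touch or overlap.

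Tgfb2 had its peak in A away from these 2 clusters. Its highest level there was 43.2 CPM (interval 36.0 to 51.4) in A-c8, a cluster of 337 cells led by Dpt, Aspn and Mgp. Its second highest was 23.5 CPM (interval 15.8 to 33.5) in A-c12, and its lowest was 2.03 CPM in A-c0. In B its highest level, 21.9 CPM (interval 18.0 to 26.5), was in B-c1, where Tgfb3, Tgfbr2, Tgfbr3 and Fst had theirs too. In A-c8 the levels of Tgfb1 (3.43 CPM) and Inhba (1.03 CPM, 3 UMIs) were the lowest of all 15 clusters, while Tgfbi was second highest at 749 CPM. Cluster A-c4, led by Col6a5, Wfdc1 and D630033O11Rik, with Lepr among its top genes, joined Inhba at 32.7 CPM to the lowest Fst of A, 4.39 CPM, and the second highest Tgfbr3, 122 CPM. A-c13, with Col6a5, Lepr and Wfdc1 also among its top genes, had 15.0, 5.36 and 79.3 CPM of these 3 genes. In B the cluster sharing most top genes with A-c4 was B-c5 (3 genes). There Inhba (11.0 CPM), Fst (6.26) and Tgfbr3 (28.7) had ranks 7, 11 and 6 of 12 clusters.

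The clusters A-c0 and A-c12 each shared leading genes with a cluster of B. B-c2 (1158 cells) shared 5 of its top 10 genes with A-c0 (AW112010, Htra1, Npnt, Ptprr and Slco2a1), and B-c1 (1279 cells) shared 3 with A-c12 (Gadd45a, Kcnk13 and Opcml). Both clusters of each pair had at least 5 of the 8 fixed markers of PDGFRA-high mesenchyme at 2-fold or more, and a median depth of 3320 to 6950 UMIs per cell. A-c0 and A-c12 also had all 5 epithelial, enterocyte and immune markers at 2-fold or more. Of the 6 endothelial markers, A-c0 had 6 and A-c12 had 4 at that level. The part of these transcripts was not tested. B-c2 and B-c1 had at most 1 marker of each of those lists at that level.

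Compared within A3 and within B3, the pairs differed in the same 4 genes in the same direction. This comparison was chosen after the cluster levels had been seen. It left out A-c11 (206 cells, 184 from A3), which shared 2 top genes with B-c1 (Cpne8 and Gadd45a). Over all cells of A, Tgfb3 had 43.7 CPM in A-c0 and 37.4 in A-c11, so a pair with A-c11 would differ little in Tgfb3. Inhba had 135 and 17.8 CPM there, Tgfbi 1478 and 382, and Tgfb2 2.03 and 8.88. Past 1.5-fold in both A3 and B3, Inhba and Tgfbi were higher and Tgfb2 and Tgfb3 lower in A-c0 and B-c2 than in A-c12 and B-c1, beside 7.89% higher and 3.87% lower of 9778 genes. Inhba had 136 CPM in A-c0 and 50.2 in A-c12 (log2 ratio 1.44, interval 1.03 to 1.87), and 74.2 CPM in B-c2 and 20.0 in B-c1 (1.89, 1.48 to 2.32). Tgfbi had 1467 and 673 CPM in the A pair and 980 and 518 CPM in the B pair, with log2 ratios of 1.13 and 0.92.

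Tgfb3 had 44.1 CPM in A-c0 and 161 in A-c12 (log2 ratio -1.87, interval -2.17 to -1.57), and 37.6 CPM in B-c2 and 90.8 in B-c1 (-1.27, -1.60 to -0.96). Tgfb2 had 1.75 and 21.4 CPM in the A pair, from 8 and 23 UMIs, and 5.46 and 20.3 CPM in the B pair, from 17 and 64 UMIs. Within these pairs the ligands thus did not share 1 order: the cluster with more Inhba had less Tgfb2 and Tgfb3. This did not hold over all clusters. There Pearson's r of log2(CPM + 1) between Inhba and Tgfb3 was 0.47 in A and 0.34 in B. Between Inhba and Tgfb2 it was -0.34 and 0.19. Tgfb1, Tgfbr1 and Tgfbr2 stayed under 1.5-fold in both pairs, with log2 ratios from -0.38 to 0.27.

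Fst and Tgfbr3 differed between the pairs. Fst had a log2 ratio of 0.14 (interval -0.13 to 0.41) in A3 and -0.75 (-1.04 to -0.47) in B3, and Tgfbr3 one of -1.27 in A3 and -0.25 in B3. In the cells of B1 and B2 in B-c2 and B-c1, Inhba (53.7 and 18.1 CPM), Tgfbi (866 and 325 CPM), Tgfb3 (28.6 and 57.1 CPM) and Tgfb2 (2.39 and 24.9 CPM, from 2 and 44 UMIs) had the same order as in B3.

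**Figure D5:**
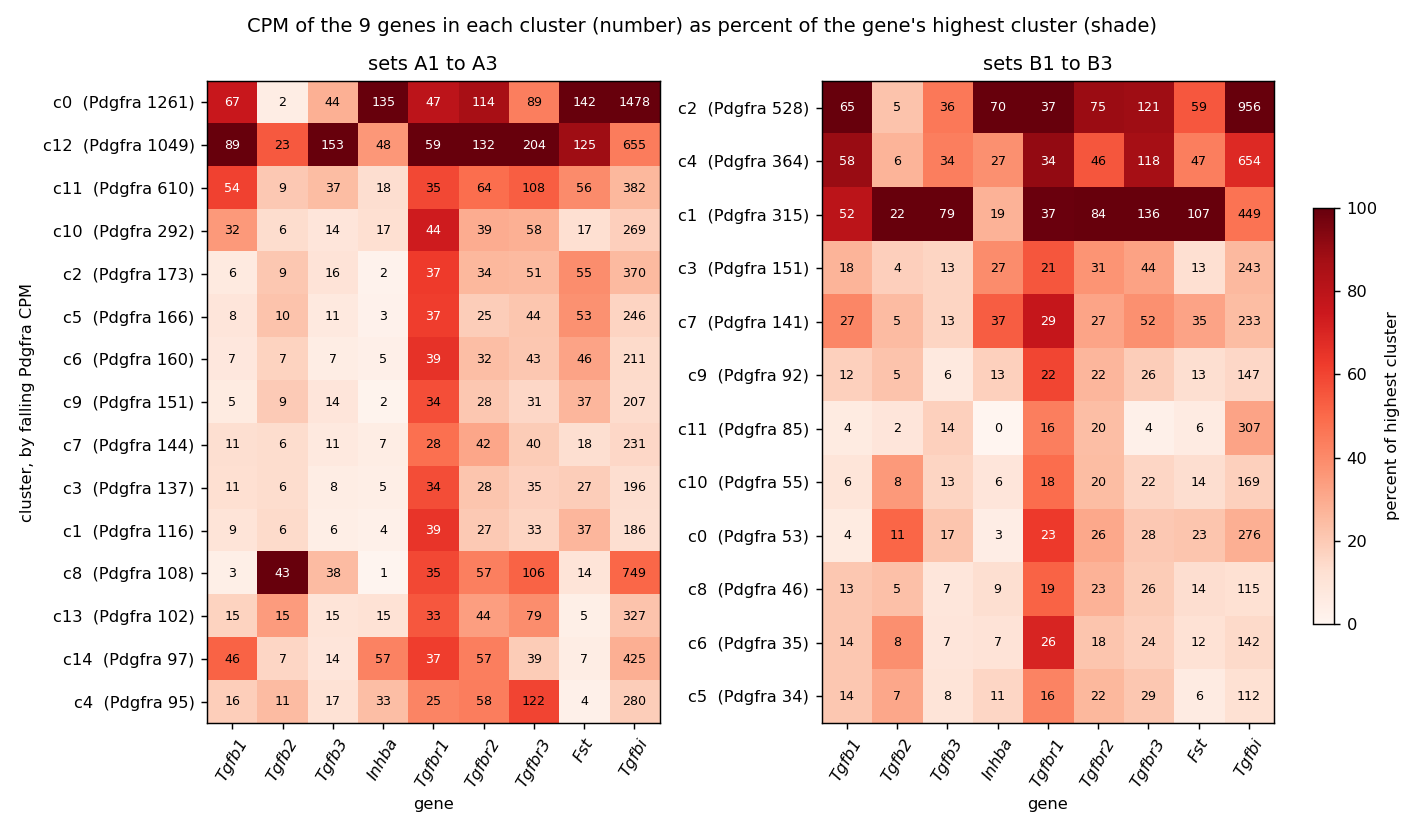
CPM of the 9 genes (columns) in each cluster of at least 50 cells (rows, by falling Pdgfra CPM); the number is the CPM and the shade its percent of the gene's highest cluster within A or within B. Inhba and Tgfbi peak in c0 of A and c2 of B, Tgfb3 peaks in c12 of A and c1 of B, and Tgfb2 peaks in c8 of A and c1 of B.

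Over clusters, 8 of the 9 genes varied with Pdgfra: Pearson's r of log2(CPM + 1) was above 0.5 in both A (15 clusters) and B (12 clusters) for all but Tgfb2, which had -0.21 and 0.04. Of the 7322 other genes with at least 20 CPM in a cluster of each, 15.4% were above 0.5 in both. The values for Tgfb1 were 0.73 and 0.80, for Tgfbr2 0.69 and 0.89, and for Inhba 0.56 and 0.63. The relation in A rested on the cells of A3. Without the cells of A3 and B3, a computation added after seeing the data, only Tgfbr1 and Fst of the 9 were above 0.5 in both (12 clusters each), beside 4.74% of 7047 other genes, and in A Tgfb1 had -0.21, Tgfbr2 -0.63 and Tgfbi -0.46, against 0.79, 0.85 and 0.88 in B. These clusters share their libraries and depth, so the values describe them and have no p-value. By the lower of the 2 values, Tgfbr2 was closest to Tgfb3 among the other 8 genes (0.88 and 0.90) and Inhba to Tgfb1 (0.91 and 0.86). Tgfb2 had 0.50 and 0.52 with Tgfbr3.

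For the 5 genes with at least 20 CPM in both A and B, the most similar of 7331 genes over the clusters were ranked by the lower of the 2 r values. Among the genes most like Tgfbr2 were Tmem59 and Plod1 (0.94 for Tmem59), and Tgfbi was most like Map1b, Tenm4 and mt-Co2 (0.93 for Map1b). Tgfbr3 was most like Axl, Arsj and Pltp (0.91 for Axl), Fst most like Tet3, Dnmt3a and Prom1 (0.85 for Tet3), and Tgfbr1 most like Stk4, Calb1 and Cacna2d3 (0.83 for Stk4).

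Single cells held few UMIs of most of these genes at 2000 UMIs, so joint detection was sparse. Of 36 pairs of the 9 genes, 4 were found together more often than the product of their shares in 6 of 6 sets, beside 1.58% of 53981245 pairs of the 10391 genes with at least 5 CPM: Tgfbr2 with Fst (136 cells against 92.1), Tgfb3 with Tgfbr3 (143 against 101), Tgfb1 with Tgfbr3 (130 against 108) and Tgfbr1 with Tgfbr2 (83 against 73.1). Inhba and its antagonist Fst were found together in 41 cells against 50.8, and above the product in 1 of 6 sets. These are descriptions with no test.

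The wider pathway did not move as one. Of 57 other pathway genes, 50 had enough counts in A and 19 of them were higher and 9 lower in A3. Over all genes 19% were higher and 14.4% lower there. In B, 49 pathway genes had enough counts, with 19 higher and 9 lower in B3, beside 20% and 11.1% of all genes. The median log2 ratios of the pathway genes were 0.36 and 0.46. Of the other receptors, Acvr1, Acvr1c, Acvrl1 and Eng were higher in both A3 and B3, 4 of 8 tested in A and 4 of 7 in B, and Bambi was lower in A3. Eng, the endoglin co-receptor, had 20.2, 18.9 and 96.0 CPM in A1, A2 and A3. Eng and Acvrl1 are also endothelial genes, and the endothelial markers summed to 58.5 CPM in A3 against 7.2 and 6.8, whose part was not tested.

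Among transducers and repressors, Pmepa1, which restrains SMAD activation, had 159, 159 and 834 CPM in A1, A2 and A3, a log2 ratio of 2.39, and Pmepa1, Skil, Smad6 and Tgfbrap1 were higher in both A3 and B3. Tgfbrap1 had 14.1, 15.0 and 38.2 CPM in B1, B2 and B3. Among extracellular regulators, Htra1, a secreted protease, had 2.51, 2.08 and 62.5 CPM in A1, A2 and A3 (log2 ratio 4.76), while the proteoglycan Dcn, known to bind TGF-beta, had 747, 722 and 141 CPM, and in B1, B2 and B3 727, 720 and 115 CPM. The integrin gene Itgb8, whose product helps to release latent TGF-beta, had 13.2, 14.2 and 40.9 CPM in B1, B2 and B3. Fstl3, a relative of follistatin, had 20.2, 16.8 and 4.59 CPM there.

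Commonly used response genes split, and the members that were lower include smooth muscle markers. Of 12 with enough counts, 3 were higher in both A3 and B3 (Id1, Ldlrad4 and Tgfb1i1), 5 were lower in A3 and 6 in B3. Over all genes 19% were higher and 14.4% lower in A3, and 20% higher and 11.1% lower in B3. The share of all genes higher in both is not given here. Id1, a target shared with bone morphogenetic protein signalling, had 136, 137 and 407 CPM in B1, B2 and B3, and Tagln, an actin-binding protein of smooth muscle, had 354, 332 and 43.3 CPM. Acta2, Tagln, Col1a1, Ccn1 and Ccn2 were lower in both.

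With Pdgfra at equal depth, 3 of 47 pathway genes were higher (Htra1, Tgfbrap1 and Acvrl1, with median log2 ratios of 2.60, 1.08 and 0.90) and 2 lower (Dcn at -1.49 and Tagln at -0.73). Of all genes 2.86% were higher and 3.09% lower. With Acta2, 3 of 45 were higher (Tagln, Acvr2a and Tgfb1i1, at 1.66, 0.81 and 0.70) and 2 lower (Eng at -1.15 and Ltbp3 at -0.90). Of all genes 1.04% were higher and 3.4% lower. Eng and Ltbp3 had only 16.8 and 21.5 CPM in the pooled Acta2-rich cells. Each had no UMI in the Acta2-rich class of at least a single set. Tagln thus had opposite directions in the 2 comparisons.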

How the data were processed

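Cell Ranger 2.1.1, Seurat and the build mm10 are named in the submitters' processing notes, with no role given. Which annotation and which filter on cells the authors applied is not given in the sources used here. The authors deposited raw UMI counts per gene and cell in 1 matrix of 6 samples, read here as whole numbers with no normalization. The chemistry captures transcript 3' ends, per the labels' protocols, so CPM was not divided by length.

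Cells with under 1000 genes (108) or over 5% mitochondrial UMIs (367) were left out, 439 in all. No doublet caller was run and doublets may remain. CPM carries exact Poisson, shares exact Clopper-Pearson and ratios exact conditional binomial 95% intervals (scipy 1.17.1). Thinning drew 2000 UMIs per cell without replacement (41 shallower kept cells left out). Classes of under 30 cells in a set were not used. Clusters came from scanpy 1.11.5 and leidenalg 0.10.2 (2000 variable genes, 30 principal components, 15 neighbours, resolution 1), within A and within B. Counts of Ccn1 and Ccn2 include their older symbols. The set comparison was tested on simulated data: of 100 genes changed 2-fold, 99% were called in the true direction for A3 (21295 genes) and 95% for B3 (18185 genes). The simulated sets shared a common profile and differed otherwise by counting error alone. The result therefore says nothing of differences between sets in their cells or libraries.

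Members and lists were chosen with earlier results of these data known. All 9 genes are named. Pathway genes are named by the 3 largest and 3 smallest ratios per comparison among those past the fold that reach 20 CPM in the higher of the classes, and others only as part of a count. Similar genes needed 20 CPM in 1 cluster of each ending, and 1 of them is not reported here. Promoter windows were given for 6 of the 9 genes; those of Tgfb2 and Inhba lie inside longer RefSeq models and are not shown.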

Additional observations from a re-analysis of the deposited data

How the results depend on the processing

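The counts of genes past the fold in A3 and B3 stayed between 6 and 8 under every alternative run (no cell filter, mean of per-cell CPM, thinned UMIs, a fold of 2, a total without mitochondrial and enterocyte genes and, chosen after seeing the data, cells with no immune or endothelial UMI); Tgfbr1 in B and Tgfb2 in A changed their call in 2 of 7 settings each. The count of 3 with Pdgfra became 0 with 1 or more Pdgfra UMIs, 1 with 3 or more (4 sets), 1 at a fold of 2, and, among alternatives chosen after seeing the data, 5 with unthinned UMIs, 6 without B3 and 6 without A3 and B3. The count of 0 with Acta2 became 3 with thinning to 1500 UMIs, where only 2 sets had enough cells. The cause of these changes was not tested. Shares over all genes are not given for the alternatives of the set, Pdgfra and Acta2 counts. A minimum of 10 Acta2 UMIs was not run, since no set had 30 such cells. The number of genes with r above 0.5 to Pdgfra over clusters was 7 or 8 under the clustering alternatives and 2 without the cells of A3 and B3, chosen after seeing the data. Of 291 single-gene values under alternatives, 268 stayed within the counting interval (set ratios) or within 1 SD over the sets (Pdgfra and Acta2 ratios) and 23 moved further, and the called values kept their sign in all of them. Depth limits the Acta2-rich classes, where Inhba had 0 to 4 UMIs in each set. No paired analysis was possible because no label ties the cells of the matrix to samples.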
